A study of Mus musculus with 288 samples.

Results

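Ctsl, which encodes the lysosomal protease cathepsin L, and Ctla2a, which encodes a small protein known as an inhibitor of cathepsin L, were followed in mouse bone marrow-derived macrophages (BMDMs). They are 2 of the 23481 genes of the deposited count table and were chosen by their measured UMI levels, because both stood higher after either inhibitor than after DMSO. That contrast is therefore described here without a test. The cells came from the bone marrow of C57BL/6 mice aged 12 weeks and were differentiated ex vivo with M-CSF. They were kept for 24 h with dCA at 100 nM or with BRD-6989 at 1 µM, which the labels call CDK8 inhibitors. Control wells had DMSO, for which the labels give no duration. CDK8 is the kinase of a module that docks on the Mediator complex. Each pretreatment was then combined with no stimulus (NoStim) or 1 of 11 stimuli, which keep their label names: CpG, FLA, LPS, MDP, MDP_LPS, Pam3cys, Poly(I:C), R848, SeV, TDB and Zymosan. Each combination was collected at 8 times from 15 to 180 min, 1 well each, which gave 96 wells per pretreatment and 288 in all. Each pretreatment filled 1 plate with a library index of its own, so an effect of the plate cannot be told apart from that of the inhibitor, and time equals plate row. Each stimulus condition kept the same plate column on every plate, with NoStim in column 1. An effect of the column therefore cannot be told apart from that of the stimulus. The labels name no separate cultures or animals. P-values from fits of single wells therefore measure only the spread between wells, which may be technical. Other fits used 36 libraries, each the sum of the 8 wells of a combination. Their p-values measure the spread left between stimulus conditions of the same plates. No p-value covers a spread between cultures, animals or plates.

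Cathepsin L is a papain-type cysteine protease. It is made as an inactive pro-enzyme whose propeptide blocks the active site until it is cut off in the acid of the endosome or lysosome. In macrophages it degrades endocytosed protein, and part of it is secreted. Ctla2a and its near copy Ctla2b encode proteins that resemble this propeptide alone, without a protease behind it, and Ctla2a protein inhibits cathepsin L in that way. Ctla2a was first described in activated T cells and mast cells and is also made in the placenta and other tissues.

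All 3 genes lie on chromosome 13 on the minus strand (GRCm38.p6, the mm10 build, from RefSeq). Ctla2a spans 60934155 to 60936625, Ctla2b spans 60895351 to 60897934 and Ctsl spans 64361890 to 64370772. The gap between Ctla2b and Ctla2a is 36221 bases, and that between Ctla2a and Ctsl is 3.43 Mb. The 250 bases before the outermost RefSeq start of Ctla2a (chr13:60936626-60936875, minus strand, written 5′ to 3′) are shown because the gene was close to 0 in DMSO and present under both inhibitors. Capitals mark, in order, matches to the TATA box letters TATAAA, to the AP-1 letters TGANTCA and to the CRE core TGACG.
Ctla2a: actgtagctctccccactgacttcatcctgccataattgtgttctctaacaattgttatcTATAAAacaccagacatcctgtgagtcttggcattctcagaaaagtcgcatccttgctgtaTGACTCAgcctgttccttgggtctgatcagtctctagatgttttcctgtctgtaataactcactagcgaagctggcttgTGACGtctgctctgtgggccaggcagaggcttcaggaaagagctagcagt

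The promoter windows of Ctla2a and Ctla2b, 300 bases around a RefSeq start, were identical in 256 of 278 aligned columns (92.1%), with 8 gap bases. The search for motif letters covered both strands of the 250 bases before the start and not the bases after it. TATAAA began at -190 in Ctla2a and was not matched in Ctla2b, where the aligned letters differ by A2C and A5G, counted from 1 at the first base of the box with the base of Ctla2a first. The aligned stretches at chr13:60936798-60936827 (Ctla2a) and chr13:60897634-60897663 (Ctla2b) show this difference, with the box in capitals.
Ctla2a: acaattgttatcTATAAAacaccagacatc
Ctla2b: acaattgttaacTCTAGAgaaccagacatc
The AP-1 letters were shared, at -129 in Ctla2a and -143 in Ctla2b, as the stretches at chr13:60936737-60936766 and chr13:60897573-60897602 show with the match in capitals.
Ctla2a: atccttgctgtaTGACTCAgcctgttcctt
Ctla2b: atgcttcctgtaTGACTCAgcctagtcctt
The CRE core was present in both, at -50 and -72, and the NF-kB pattern was matched only in Ctla2b among the 3 genes, at -57. The searched bases of Ctsl held none of these. They held the E-box letters CACGTG, which factors of the TFEB and MITF family bind, at -236. This stretch (chr13:64370739-64370768) lies inside the outer limits of the annotated gene, with the E-box in capitals.
Ctsl: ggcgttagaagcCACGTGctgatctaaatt
Of 32851 promoter windows, searched over the same 250 bases, 12.4% held TATAAA, 6.75% the AP-1 letters, 17.8% the CRE core, 45.8% the NF-kB pattern and 6.02% the E-box. None of the 3 genes matched the ETS and PU.1 core GAGGAA, present in 23.3% of windows, or CCAAT, present in 33.8%. A match is a description of the letters and not a sign of binding.

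Levels are given as CPM, the UMI of a gene per 1000000 UMI of all genes but Rn45s, where a UMI is a distinct random barcode that stands for 1 captured transcript end. Rn45s, the precursor of ribosomal RNA, made up 52.7% ± 6.89 of the UMI of DMSO wells, 49.0% ± 7.04 for dCA and 43.6% ± 6.75 for BRD-6989 (SD, n = 96 each). The other genes had 21810 to 70797 UMI per well. At that depth 1 UMI is worth a large step for a gene as scarce as Ctla2a, and intervals given for counts are exact 95% intervals that cover counting error only. All 9 macrophage markers in the table had UMI in every pretreatment.

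Ctsl was abundant in all wells and stood several-fold higher on both inhibitor plates. In DMSO its level ran from 193 to 1439 with a median of 757 over 96 wells. In dCA the lowest well was at 2216, the median at 5029 and the highest at 7599. In BRD-6989 the lowest was at 3036, the median at 4419 and the highest at 6291. No inhibitor well reached down to the highest DMSO well, so the ranges did not overlap for either inhibitor. This contrast chose the gene, and the share of all genes with such a gap is not given. The gene passed from rank 172 of 13407 genes with UMI in DMSO to rank 9 of 13361 in dCA and rank 10 of 13528 in BRD-6989. These bulk wells cannot tell fewer cells of a type apart from less RNA per cell.

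Within a pretreatment Ctsl varied little between stimuli. The 12 conditions of DMSO, each the sum of 8 wells, averaged 794 ± 71.3 (SD, n = 12). They ran from 705 with TDB to 974 with R848, and NoStim was at 789. In dCA they averaged 5036 ± 368, from 4372 with CpG to 5539 with TDB, with NoStim at 5027. In BRD-6989 they averaged 4499 ± 314, from 4121 with TDB to 5081 with R848, with NoStim at 4340. The SD between conditions was 8.98% of the mean for DMSO, 7.32% for dCA and 6.98% for BRD-6989. TDB gave the lowest condition in DMSO and BRD-6989 and the highest in dCA, so the order of the stimuli was not the same on the 3 plates.

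**Figure D1:**
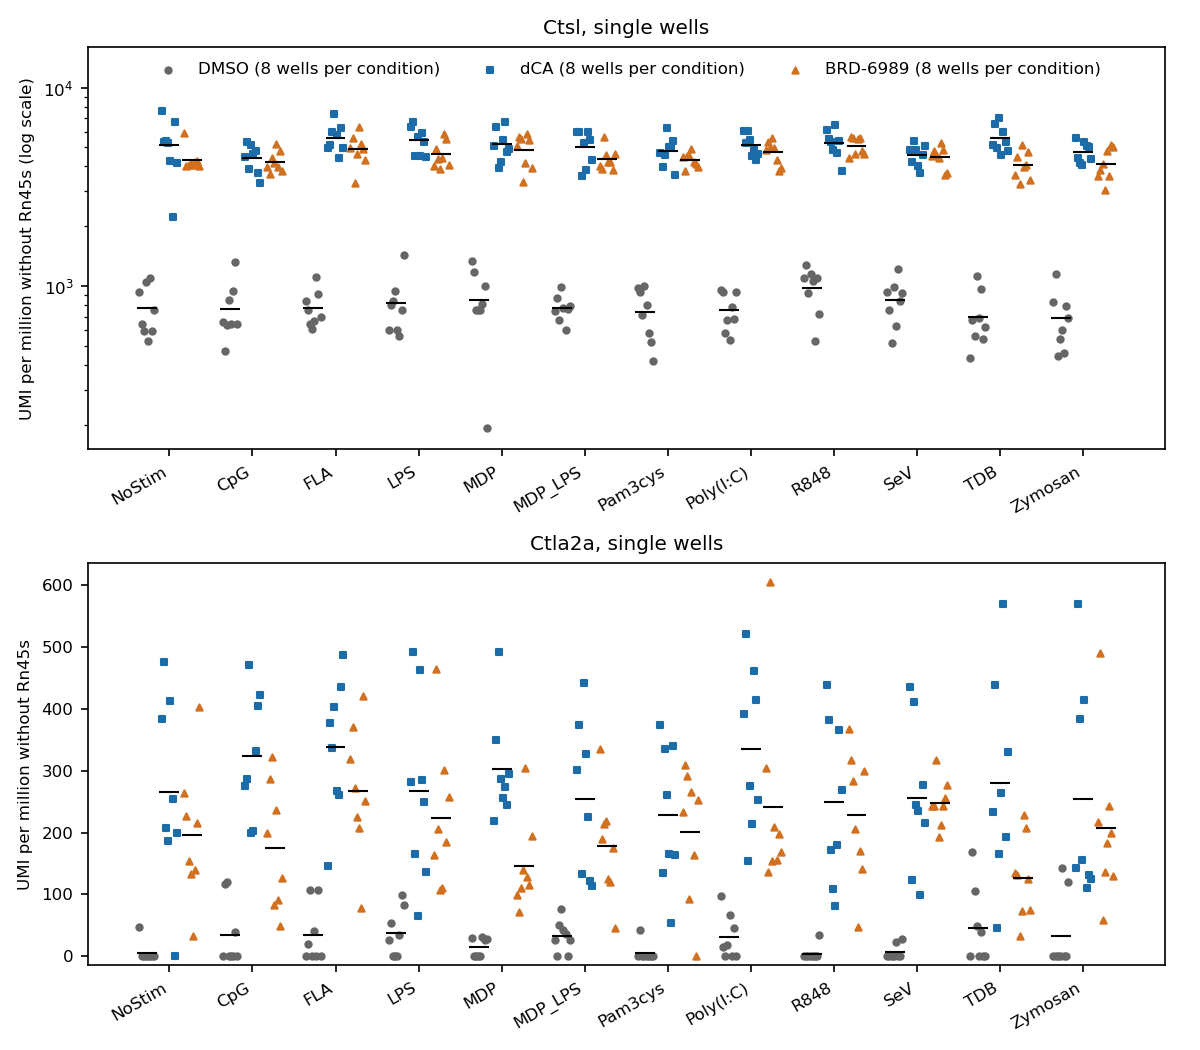
Level of Ctsl (log scale) and Ctla2a (linear scale) in CPM without Rn45s in every well, by stimulus and pretreatment; each point is 1 well, 8 per condition, and bars are their means. All dCA and BRD-6989 wells of Ctsl lie above all DMSO wells, the highest of which is at 1439, while for Ctla2a most DMSO wells lie at 0 and the inhibitor wells spread up to 606.

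Ctla2a was close to 0 in DMSO. Over the 96 wells of DMSO 84 UMI were counted, 38 of the wells (39.6%) had any, the median well was at 0 and the highest at 169. In dCA 1003 UMI were counted, 95 of 96 wells had at least 1, and levels ran from 0 to 570 with a median of 268. In BRD-6989 884 UMI were counted, again with 95 of 96 wells above 0, and levels ran from 0 to 606 with a median of 200. In contrast to Ctsl the ranges overlapped. A total of 72 dCA wells and 57 BRD-6989 wells lay above the highest DMSO well, and at matched stimulus and time the inhibitor well was the higher one in 94 and 93 of 96 pairs. These counts too come from the contrast that chose the gene, without the share over all genes. The median inhibitor well held 10 UMI in dCA and 8 in BRD-6989, so most of the scatter between wells is at a depth of a few molecules.

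Among stimuli Ctla2a in DMSO ran from 1 UMI with R848 (3.43 CPM) to 13 UMI with TDB (46.5 CPM). NoStim, Pam3cys and SeV had 2 UMI each. The exact interval of TDB was 24.8 to 79.6 CPM. It lay above those of R848 (0.0868 to 19.1), SeV (0.782 to 23.3) and Pam3cys (0.824 to 24.6) and overlapped that of NoStim (0.872 to 26.0). Of the 13 TDB UMI, 7 came from the well of 30 min, and only 4 of the 8 TDB wells had any. The intervals cover counting error only and not this spread between wells, and a difference between these conditions was not tested. In dCA the 12 conditions averaged 279 ± 37.9 (SD, n = 12), from 229 with Pam3cys to 339 with Poly(I:C). In BRD-6989 they averaged 202 ± 41.9, from 128 with TDB to 265 with FLA. NoStim was at 254 and 201.

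The ratio of inhibitor to DMSO was narrow for Ctsl and wide for Ctla2a. Pooled over all wells Ctsl was 6.35-fold higher in dCA than in DMSO (95% counting interval 6.1 to 6.61) and 5.69-fold higher in BRD-6989 (5.47 to 5.92). Over single conditions it ran from 5.38 with R848 to 7.85 with TDB in dCA, and from 5.22 with R848 to 6.34 with FLA in BRD-6989. Ctla2a was 11.8-fold higher in dCA (9.4 to 14.9) and 8.61-fold higher in BRD-6989 (6.88 to 10.9). Its condition ratios ran from 6.07 with TDB to 74.9 with R848 in dCA and from 2.75 with TDB to 66.4 with R848 in BRD-6989. The R848 ratios rest on 1 DMSO UMI and have counting intervals of 13.1 to 2995 and 11.6 to 2654. Both genes were higher than in DMSO in 12 of 12 conditions with each inhibitor. As fitted by edgeR over the 36 summed libraries the log2 values were 2.73 ± 0.04 and 2.54 ± 0.04 for Ctsl, and 3.62 ± 0.21 and 3.13 ± 0.21 for Ctla2a (estimate ± SE, dCA then BRD-6989). The doses of the inhibitors differ, so their values stand side by side and are not compared. Over all genes, 17.9% passed the threshold of an adjusted p under 0.05 between dCA and DMSO and 21% between BRD-6989 and DMSO. Nothing is read from those shares for Ctsl and Ctla2a, since this contrast chose them.

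**Figure D2:**
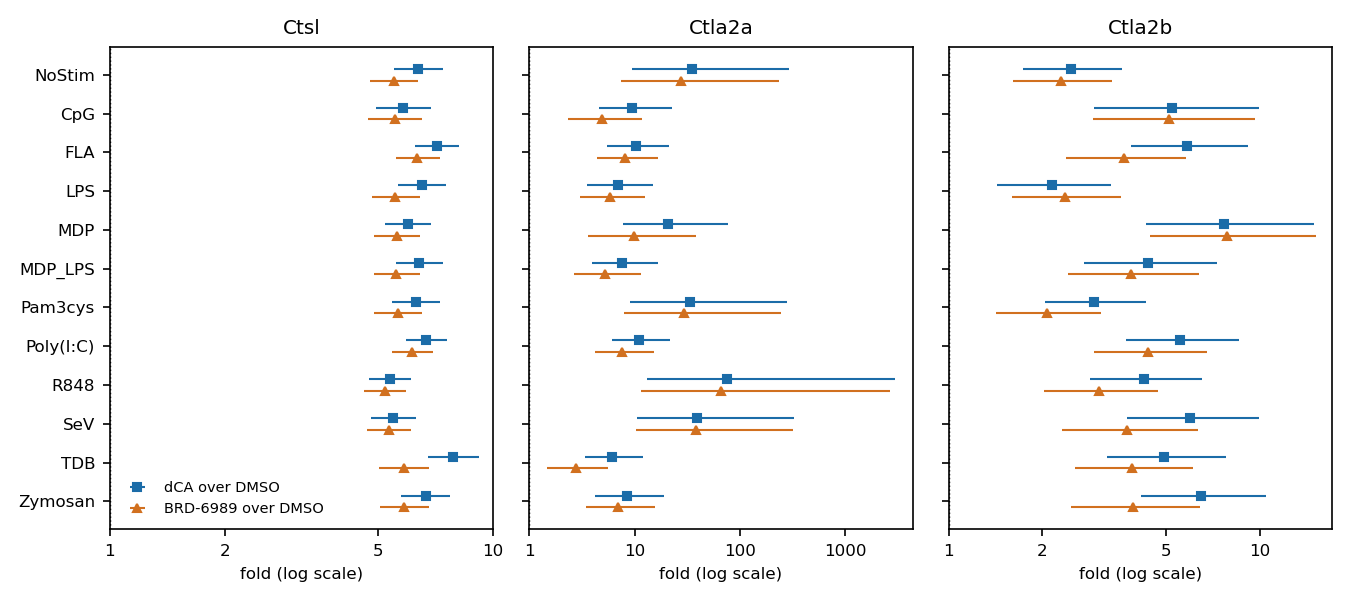
Ratio of inhibitor to DMSO (log scale) for Ctsl, Ctla2a and Ctla2b in each stimulus condition; points are ratios of CPM over 8 summed wells and bars are exact 95% counting intervals. Ctsl lies between 5.22 and 7.85 in all conditions, while the Ctla2a bars are widest where DMSO held 1 or 2 UMI.

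The count of reads per UMI gives a check on how the molecules were sampled. Ctsl had 5.99 reads per UMI with DMSO, 6.44 with dCA and 5.93 with BRD-6989. Ctla2a had 4.04, 5.91 and 5.41, against 5.55, 5.69 and 5.33 over all genes but Rn45s. In read counts the pooled ratio of Ctla2a was 16.8 in dCA and 12.0 in BRD-6989, larger than in UMI, and its fitted log2 value was 4.32 and 3.83. The ratio of Ctsl was 6.65 and 5.86 in reads.

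Ctla2b, the near copy, was also raised. It was not among the genes chosen, and its total was 322 UMI with DMSO, 1437 with dCA and 1356 with BRD-6989. Its condition means were 91.6 ± 32.7, 397 ± 70.2 and 314 ± 37.8 CPM (SD, n = 12 each). By edgeR's quasi-likelihood test it rose by 2.20 ± 0.13 on the log2 scale in dCA (adjusted p = 1.93e-19) and by 1.83 ± 0.13 in BRD-6989 (adjusted p = 1.75e-16), higher in 12 of 12 conditions with each. With the Rn45s share as a covariate the BRD-6989 value was 1.30 (adjusted p = 0.00163). How reads of such near copies were assigned is not given in the sources used here, so counts of either may hold reads of the other.

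Ctla2a was the smaller part of the pair in all 3 pretreatments. Of the UMI of both copies Ctla2a took 20.7% in DMSO (84 of 406, Wilson 95% interval 17.0% to 24.9%), 41.1% in dCA (39.2% to 43.1%) and 39.5% in BRD-6989 (37.5% to 41.5%). In reads the shares were 14.5%, 39.6% and 38.2%. Within DMSO the share ran from 3.23% with R848 to 36.4% with CpG, and within dCA from 33.6% with Zymosan to 50.6% with CpG. These shares use the contrast that chose Ctla2a and are given without a test. The sum of both copies was 115 ± 32.5 CPM with DMSO, 676 ± 82.8 with dCA and 517 ± 35.8 with BRD-6989 (SD, n = 12 conditions). An exchange of counts between the copies leaves this sum unchanged. Other effects of read assignment on the sum are not known, since the counting rules are not given. The sum was 5.91-fold (5.32 to 6.58) and 4.51-fold (4.06 to 5.03) higher than in DMSO.

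**Figure D3:**
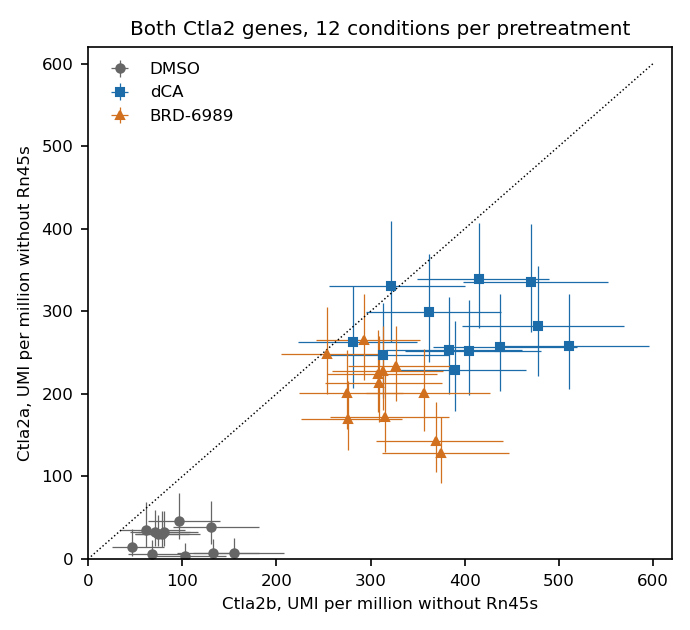
Level of Ctla2a against Ctla2b in CPM without Rn45s; each point is 1 of 12 stimulus conditions of a pretreatment (8 summed wells), bars are exact 95% Poisson intervals and the dotted line marks equal levels. DMSO conditions lie at the lower left with Ctla2a at 46.5 or less, and inhibitor conditions lie higher on both axes.

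Whether the stimuli moved the genes was asked within each pretreatment, in the 60 wells of 60 min and later, a comparison that the choice of the genes did not use. In DMSO the mean of the 11 stimuli differed from NoStim by -0.0067 ± 0.24 for Ctsl (log2 ± SE, 95% interval -0.48 to 0.46, edgeR adjusted p = 1), where 0.562% of genes passed. In dCA the difference was 0.16 ± 0.12 (-0.086 to 0.40, adjusted p = 0.827), where 0.517% passed, and in BRD-6989 it was 0.15 ± 0.11 (-0.069 to 0.36, adjusted p = 0.801), where 0.503% passed. Responses of Ctsl inside these intervals were not detectable with these wells. A joint test of any difference between the 12 conditions gave adjusted p = 0.999 with DMSO, 0.819 with dCA and 0.83 with BRD-6989 (edgeR), where 1.74%, 1.74% and 2.51% of genes passed. FLA gave the highest single value for Ctsl in both inhibitors, 0.37 ± 0.16 in dCA and 0.33 ± 0.15 in BRD-6989, which are described without a call. All 11 stimuli lay above NoStim in BRD-6989, 10 of 11 in dCA and 7 of 11 in DMSO. Each of these counts shares 1 set of NoStim wells, which fill 1 plate column.

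Ctla2a could not be tested for stimuli in DMSO, since its mean there was under the minimum of 1 UMI per well. In dCA its mean response was 0.32 ± 0.43 (95% interval -0.53 to 1.16, edgeR adjusted p = 0.923), and in BRD-6989 it was -0.10 ± 0.42 (-0.93 to 0.73, adjusted p = 1). The joint tests gave adjusted p = 1 and 0.999. The summed counts of both copies gave 0.12 (adjusted p = 0.984) and -0.14 (adjusted p = 0.967). With these intervals a change of 1 on the log2 scale could not be told from none in dCA. Ctla2b did not pass in any pretreatment either, at -0.03 ± 0.75 with DMSO, -0.02 ± 0.33 with dCA and -0.18 ± 0.34 with BRD-6989.

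Whether the response to stimuli differed between an inhibitor and DMSO was tested in the 180 wells of 60 min and later. For Ctsl the difference of the mean response was 0.14 ± 0.21 for dCA (95% interval -0.27 to 0.55) and 0.15 ± 0.21 for BRD-6989 (-0.26 to 0.57), both with an edgeR adjusted p = 1. In these comparisons 0% of 5771 genes passed with dCA and 0% with BRD-6989. At an unadjusted p under 0.05 there were 333 and 259 genes, and DESeq2 called 0 and 0. For Ctla2a the difference could not be estimated, because NoStim wells of DMSO held no UMI of it at those times.

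Over time Ctsl did not pass the threshold in any pretreatment, and its slope was steepest in dCA. Its slope was -0.03 ± 0.05 per hour in DMSO (log2, edgeR adjusted p = 0.86), where 3.33% of genes passed. In BRD-6989 it was -0.0035 ± 0.025 (adjusted p = 0.983), where 4% passed. In dCA it was -0.07 ± 0.03 (95% interval -0.13 to -0.02, edgeR adjusted p = 0.166), where 3.48% passed. The 12 wells of dCA averaged 5559 ± 888 (SD) at 15 min and 4364 ± 561 at 180 min. The dCA slope passed without the filter on low counts (adjusted p = 0.0248) and without the wells of 150 min (0.0309), and stood at adjusted p = 0.842 at the other end of the leave-one-out range.

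Ctla2a had lower mean levels in later wells with both inhibitors, a split into early and late that was not tested itself. In dCA its level was 317 ± 36.6 CPM over the 12 conditions in the wells of 15 to 45 min and 255 ± 59.2 in those of 60 to 180 min (SD), lower late in 10 of 12 conditions. In BRD-6989 it was 250 ± 76.7 and 174 ± 39.2, again lower late in 10 of 12. The slopes over all times were -0.14 ± 0.09 per hour in dCA (edgeR adjusted p = 0.613) and -0.14 ± 0.09 in BRD-6989 (adjusted p = 0.576), and neither passed. Ctla2b gave slopes of -0.0026 ± 0.078 and -0.06 ± 0.08. Ctla2a in DMSO was under the filter, with 39 UMI in the 36 early wells and 45 in the 60 late ones. Its level there was 28.4 ± 29.2 CPM early and 20.5 ± 17.2 late (SD over 12 conditions), lower late in 6 of 12. Ctla2b in DMSO was at 110 ± 66.4 early and 80.1 ± 25.2 late, lower late in 9 of 12.

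**Figure D4:**
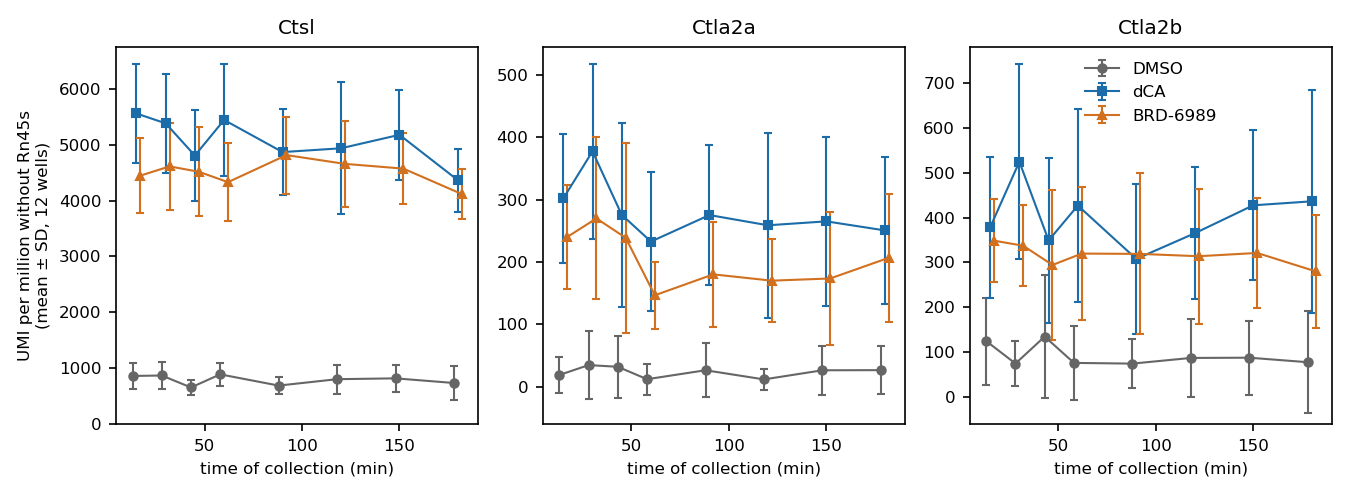
Level of Ctsl, Ctla2a and Ctla2b in CPM without Rn45s by time of collection in minutes; points are means and bars SD over 12 wells, 1 per stimulus condition. Ctla2a means of both inhibitors are highest at 30 min (377 in dCA, 270 in BRD-6989) and the bars of neighbouring times overlap.

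No relation between the levels of Ctsl and Ctla2a was detected across wells. Across the 96 dCA wells the levels had Pearson r = -0.00246 (permutation p = 0.981, adjusted p = 0.981 over 4 relations) and Spearman rho = 0.103 (permutation p = 0.315, adjusted p = 0.901). Across the 96 BRD-6989 wells r was 0.0712 (permutation p = 0.489, adjusted p = 0.978) and rho was 0.0376 (permutation p = 0.716, adjusted p = 0.901). Without the 2 wells farthest from the median of Ctsl, r was 0.0245 and 0.0585. After the means of stimulus and time were removed r was -0.0732 in dCA (permutation p = 0.471) and -0.00761 in BRD-6989 (permutation p = 0.941). At 8 to 10 Ctla2a UMI in the median well, counting error takes a large part of the spread that such an r could show.

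The 5 other papain-type cathepsins that could be tested had smaller log2 values than Ctsl, between -1.12 and 0.41. Of 18 in the list 9 had any UMI, and Ctsk, under the filter, had 1 UMI with DMSO, 15 with dCA and 8 with BRD-6989. Over all genes 17.9% passed with dCA and 21% with BRD-6989, and the counts of this and the next lists stand beside those shares. In dCA 1 rose and 1 fell (median log2 -0.20, against -0.00805 over all genes tested; 2 fell without NoStim or without Zymosan), and in BRD-6989 2 rose and 2 fell (median -0.31 against 0.00432). Ctsb, the most abundant of them, went from 4803 ± 629 CPM in DMSO to 6118 ± 865 in dCA, a log2 change of 0.41 ± 0.03 (edgeR adjusted p = 5.28e-16), and to 5935 ± 803 in BRD-6989, a change of 0.34 ± 0.03 (adjusted p = 5.47e-13). Ctsc, which activates serine proteases of granules, fell by 0.77 ± 0.15 and 1.12 ± 0.15, and with the Rn45s share as a covariate was at -0.37 (edgeR adjusted p = 0.214) and -0.11 (0.929). Ctss, which trims the invariant chain in antigen-presenting cells, rose by 0.35 ± 0.08 in BRD-6989 and stood at 0.10 ± 0.08 in dCA (adjusted p = 0.477), where total read counts gave 0.34 (adjusted p = 0.00703). Ctsz fell by 0.31 ± 0.09 in BRD-6989, a call lost without the replicate block (adjusted p = 0.0734) and in times of 60 min and later (0.0713).

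Among 10 other lysosomal proteases 7 could be tested; 3 rose and 0 fell in dCA (17.9% of all genes called; median 0.04 against -0.00805), and 3 rose and 1 fell in BRD-6989 (21% of all genes; median 0.07 against 0.00432). Ctsd, the aspartic protease cathepsin D, rose by 0.77 ± 0.03 in dCA (edgeR adjusted p = 5.19e-25) and 0.51 ± 0.03 in BRD-6989 (9.12e-18). Lgmn, an asparaginyl endopeptidase that helps to process cathepsins, rose by 0.63 ± 0.09 and 0.56 ± 0.09. Dpp7 rose by 0.92 ± 0.22 and 0.61 ± 0.22, and its BRD-6989 call was lost when NoStim, CpG, FLA, LPS, MDP, R848, SeV or TDB was left out (adjusted p up to 0.114). Ctsa, a serine carboxypeptidase, fell by 0.38 ± 0.07 in BRD-6989.

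Of 20 other inhibitors of cysteine proteases 6 had any UMI and 3 could be tested, Ctla2b, Cst3 and Cstb. In dCA 2 rose and 0 fell (17.9% of all genes called; median 0.41 against -0.00805), and in BRD-6989 2 rose and 1 fell (21% of all genes; median 0.63 against 0.00432). Cstb, the cytosolic inhibitor cystatin B, rose by 0.41 ± 0.10 in dCA (edgeR adjusted p = 0.00228) and 0.63 ± 0.10 in BRD-6989 (1.91e-06). Cst3, the secreted inhibitor cystatin C, was at 1958 ± 359 CPM in DMSO and 1965 ± 390 in dCA (adjusted p = 0.425), and fell by 0.27 ± 0.05 in BRD-6989, a call lost without the replicate block (adjusted p = 0.0564).

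Of 10 genes that sort enzymes to the lysosome 7 could be tested; 2 rose in dCA (17.9% of all genes called; median -0.0176 against -0.00805), 3 rose in BRD-6989 (21% of all genes; median -0.17 against 0.00432), and 0 fell with either. Gnptab, whose product builds the mannose 6-phosphate tag of lysosomal enzymes, rose by 1.19 ± 0.18 in dCA (edgeR adjusted p = 5.2e-07) and 1.04 ± 0.17 in BRD-6989 (5.78e-06). M6pr, a receptor for that tag, rose by 0.47 ± 0.12 and 0.41 ± 0.12, the latter lost without FLA (adjusted p = 0.0561). Igf2r, the larger receptor, passed in BRD-6989 at 0.68 ± 0.25, and lost the call without NoStim, CpG, LPS, MDP_LPS, Poly(I:C), TDB or Zymosan (adjusted p up to 0.125). Of 4 factors known to drive lysosome genes 3 could be tested; none passed in dCA (median 0.13) and 1, Mitf, rose in BRD-6989 (median 0.14), with 17.9% and 21% of all genes called, by 0.84 ± 0.18 (adjusted p = 0.000396).

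The share of Rn45s differed between the plates, as given above, and its part in these calls was not tested. With that share as a covariate 5 of the 9 calls of these lists remained in dCA (Ctla2b, Ctsb, Ctsd, Gnptab and Lgmn) and 3 of the 15 in BRD-6989 (Cst3, Ctla2b and Ctsd). Some lost calls kept a like value, as Dpp7 (0.79), M6pr (0.35) and Cstb (0.31) in dCA and Ctsz (-0.28) and Ctsa (-0.48) in BRD-6989. Others came closer to 0 in BRD-6989, as Mitf (0.017), Igf2r (0.073), M6pr (0.13), Dpp7 (0.28), Cstb (0.38), Ctss (0.20) and Ctsb (0.20, adjusted p = 0.0528 by edgeR). Gnptab and Lgmn, which kept their calls in dCA, lost those in BRD-6989 as well. The log2 values of Ctsl were then 2.68 and 2.40 and those of Ctla2a 3.84 and 3.66.

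Neighbouring genes were read for their own values. Cdk20, which encodes a cyclin-dependent kinase and lies 61547 bases from Ctsl, went from 23.9 ± 10.5 CPM in DMSO to 127 ± 49.1 in dCA and 111 ± 32.0 in BRD-6989 (SD, n = 12). It rose by 2.43 ± 0.23 on the log2 scale in dCA (edgeR adjusted p = 1.28e-12) and 2.24 ± 0.23 in BRD-6989 (1.48e-11), in 12 of 12 conditions each. None of the other 9 measured genes within 5 on either side of Ctsl had enough UMI to be tested, and their condition means ran no higher than 28.8 CPM. Around Ctla2a only Ctla2b could be tested. Tpbpa, Tpbpb and the placental cathepsin genes Ctsj, Ctsq, Ctsr and Cts6 had 0 UMI in all 288 wells, a count that allows up to 3.

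**Figure D5:**
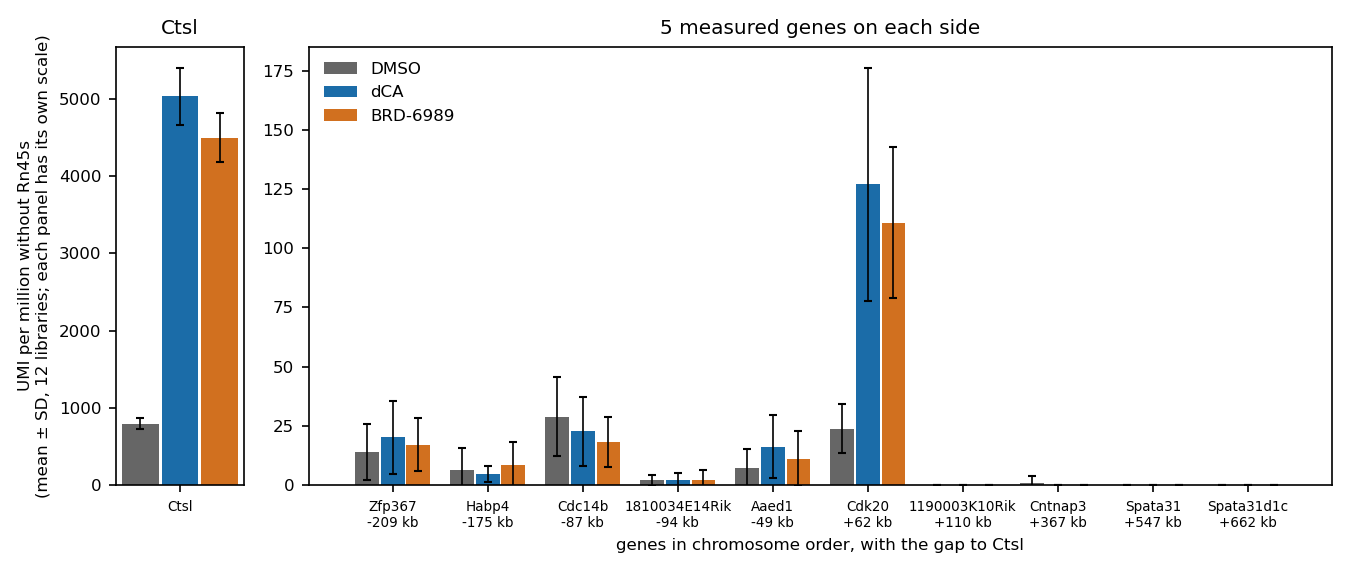
Level of Ctsl (left) and of the 5 measured genes on each side of it (right, own scale) in CPM without Rn45s, by pretreatment; bars are means and lines SD over 12 summed libraries, and labels give the gap to Ctsl. Of the genes shown beside Ctsl, Cdk20 alone exceeds 100 in an inhibitor, at 127 in dCA and 111 in BRD-6989.

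The genes most like each member over the 36 summed libraries were ranked out of the 6586 that reached a mean of 20 CPM. Those nearest to Ctsl were Fth1, the ferritin heavy chain (r = 0.959), Akap2 (0.952), Ctla2b (0.941), the surface metalloprotease Adam8 (0.94) and Cd5l, a secreted macrophage protein (0.938). Ctla2a came at rank 9 (0.929). Those nearest to Ctla2a were Ctsl (0.929), the chemokine receptor Ccr3 (0.902), the HSP90 activator Ahsa1 (0.893), Akap2 (0.893) and Cd5l (0.893), and Ctla2b came at rank 10 (0.866). The libraries share 3 plates, and a gene that differs between plates as Ctsl does is near it for that reason alone. Within the inhibitor plates, after each plate's mean was subtracted, r between Ctsl, Ctla2a and Ctla2b was smaller. Over those 24 libraries Ctla2a came at rank 474 for Ctsl (r = 0.335), Ctla2b at rank 1904 for Ctsl (0.125) and at rank 5718 for Ctla2a (-0.241). The nearest to Ctsl were then Klf2 (0.711), the lysosomal alpha-glucosidase gene Gaa (0.699), Mis18a (0.696), Ppp4c (0.694) and Ptchd1 (0.663), and the nearest to Ctla2a were Emb (0.735), Atl3 (0.683), Hn1 (0.616), Cox5b (0.607) and Arf2 (0.604). With this many genes ranked, values of that size are a description and no finding.

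Markers of other cells that make these genes were read beside them. Of 8 mast cell and basophil markers 6 were at 0 in all wells, among them Cpa3, Mcpt4, Tpsb2 and Fcer1a. The list had 2 UMI with DMSO, 7 with dCA and 22 with BRD-6989, those of the inhibitors all from Kit, and its sum over conditions ran from 0 to 3.83, 0 to 14.0 and 0 to 20.02 CPM. Of 5 T cell markers in the table Cd3e and Cd3g were at 0, and the sum of the list ran from 0 to 28.6 CPM in DMSO conditions, 0 to 34.4 in dCA and 2.78 to 11.9 in BRD-6989. The 5 osteoclast markers, which include the related protease gene Ctsk, summed to 0 to 43.0 in DMSO, 15.8 to 75.7 in dCA and 19.1 to 99.1 in BRD-6989, with Calcr at 0 throughout. The 4 endothelial markers summed to 0 to 43.3, 3.14 to 87.8 and 2.98 to 60.1. Neutrophil markers stood higher in DMSO, at 15.3 to 57.2 in DMSO, 0 to 13.3 in dCA and 0 to 9.15 in BRD-6989. Ctsk itself had means of 0.269, 4.10 and 1.95 CPM. The part of the mast cell, T cell, osteoclast, endothelial and neutrophil markers in the levels of Ctsl and Ctla2a was not tested.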

How the data were processed

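Gene expression was read by 3′ digital gene expression in 288 wells of BMDMs. The authors deposited UMI counts and total read counts per gene, raw and not normalized, per the values of the tables; per the submitters' processing notes they used BWA, edgeR and the mm10 build, while for versions, annotation and counting rules the sources used here give nothing. Both genes and all gene lists were chosen with earlier results of these data known. Rn45s was left out of totals and tests. Genes needed a mean of 1 UMI per well, or passed filterByExpr with a minimum count of 10 where the 8 times of a condition were summed into 36 libraries. The main test was edgeR 4.0.16 (R 4.3.3, TMM, quasi-likelihood) with time or stimulus as a block. It was also run on simulated independent wells without plate, row or column effects. The genes changed there were more abundant than Ctla2a in DMSO. That run cannot show how the test behaves for such scarce genes or where plates, rows or columns differ. P-values were 2-sided and adjusted by Benjamini-Hochberg over all genes of a comparison, with 0.05 as the threshold. DESeq2 1.42.0 was an alternative. Named genes were Ctsl, Ctla2a, Ctla2b, called list members (up to 4 each way), 5 neighbours on each side, and the 5 genes of highest Pearson r on log2(CPM + 5). Correlations across wells used log2(CPM + 10) and 100000 permutations. Promoters came from RefSeq (GRCm38.p6). TF-seq reporter files were not used here.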

Additional observations from a re-analysis of the deposited data

Results flagged for a closer look

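In 60 groups of 8 wells (Ctsl in 36 conditions, Ctla2a in the 24 of the inhibitors), 5 had a well far from the others by Dixon's criterion, which chance gives in about 1 of 20 groups. Ctsl in DMSO with LPS was at 1439 CPM (52 UMI) in the well of 180 min, and the next of the 8 at 946. Ctsl in BRD-6989 with NoStim was at 5917 (247 UMI) at 15 min, against 4248 for the next. Ctsl in BRD-6989 with MDP_LPS was at 5628 (237 UMI) at 45 min, against 4601. Ctla2a in BRD-6989 with Poly(I:C) was at 606 (29 UMI) at 45 min, against 305, and with Zymosan it was at 490 (24 UMI) at 30 min, against 243. These wells differ from their neighbours in time as well, and no cause was tested.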

How the results depend on the processing

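In all, 1556 values were recomputed under other settings. Those named here include values that changed sign, crossed the threshold or moved beyond the spread, and some that stayed alike. No cause was tested. Without the filter on low counts more genes passed: 54, 272 and 462 in DMSO (mean response, any difference, time slope), 72, 278 and 443 in dCA, 50, 248 and 549 in BRD-6989, and 1 for the difference of mean response with BRD-6989. With total read counts there were 53 for any difference in DMSO, 15, 62 and 84 in dCA, and 103 and 142 for any difference and slope in BRD-6989. DESeq2 gave 149 for any difference in DMSO. A stricter filter gave slopes for 116 genes in dCA and 164 in BRD-6989, and 651 and 679 genes between inhibitor and DMSO. With wells of all 8 times the mean response gave 13 genes in dCA and 14 in BRD-6989. The Rn45s share as a covariate gave 601 and 194 genes between inhibitor and DMSO, with Ctsl at 2.40 in BRD-6989, and times of 60 min and later gave 774 in BRD-6989.

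With 1 condition or time left out, counts in DMSO ran from 23 to 35, 59 to 102 and 118 to 190 (mean response, any difference, slope), in dCA from 14 to 27, 53 to 115 and 104 to 193, and in BRD-6989 from 21 to 40, 104 to 151 and 137 to 247. Between inhibitor and DMSO they ran from 912 to 979 and from 1060 to 1122. The Ctsl mean response ran from -0.11 to 0.12 in DMSO and -0.017 to 0.33 in dCA, and its difference with dCA from -0.12 to 0.47. That of Ctla2a ran from -0.042 to 0.54 in dCA and -0.36 to 0.32 in BRD-6989. The Ctsl slope ran from -0.11 to -0.043 in dCA and -0.015 to 0.038 in BRD-6989, and Igf2r in dCA from -0.12 to 0.19.

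Values near 0 changed sign. The Ctsl mean response in DMSO was 4.11e-05 by DESeq2, 0.025 with the covariate and 0.073 over all times, and its difference with dCA was -0.050 over all times. That of Ctla2a in BRD-6989 was 0.074 in reads and 0.026 over all times. The Ctsl slope in BRD-6989 was 0.0046 without the filter, 0.0036 by DESeq2, 0.0017 in reads and 0.00059 with Rn45s kept, and its slope in dCA passed without the filter at -0.075. In dCA Cst3 was -0.0042 with the stricter filter and -0.014 with the covariate, Igf2r -0.13 with the covariate and -0.11 from 60 min on, and Mitf -0.013 with the covariate. The correlation across wells was 0.179 in BRD-6989 in reads (0.149 for residuals), and -0.148 in dCA from 60 min on (-0.293 for residuals). With Rn45s in the total Ctsl was at 370, 2525 and 2508 CPM in DMSO, dCA and BRD-6989, and Ctla2a at 140 and 114 in the inhibitors; in reads Ctsl was at 5703 and 5020. Without the replicate block (stimulus or time as pairing) Ctsl stayed alike, at 2.731 and 2.537 against 2.733 and 2.538 with it. Of the list calls 9 of 9 and 11 of 15 then remained. Depth limits what Ctla2a can show, at 84 UMI in all DMSO wells.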
